A study of Mus musculus with 162 samples.

Results

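Potassium channel genes were described here across 9 organs of fasted mice. The members were the rows of the count table whose symbol is Kcn followed by a lower-case family letter code and a number. There were 92 such genes among 53686 rows, namely 67 pore-forming subunits, 10 electrically silent modifiers and 15 auxiliary subunits. A further 7 rows with Kcn symbols, mainly antisense transcripts, fell outside that spelling. The animals were adult C57BL/6J males, 8 to 9 weeks old, with no transgene or drug. Food was removed 2, 8, 12, 18 or 22 h before collection, and the 0 h controls ate ad libitum; each time had 3 mice, 18 in all. Every mouse was killed shortly after the dark phase began, so the fasts began at different clock times. Each mouse gave olfactory bulb (OB), brain (BRN, telencephalon with diencephalon), cerebellum (CBL), brainstem (BST, midbrain to medulla), stomach (STM), liver (LIV), interscapular brown fat (iBAT), perigonadal white fat (pgWAT) and posterior subcutaneous white fat (psWAT), each measured by bulk mRNA-seq. The 5 libraries that the study excluded were left out, so that OB, CBL, BST, LIV and pgWAT kept 18 libraries each, STM, iBAT and psWAT 17 and BRN 16. Levels below are read counts relative to the library total (CPM), scaled with TMM factors over the retained libraries (normalized CPM), and levels of different genes are compared only after division by exon length in kilobases (per kb).

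Potassium channels let potassium ions leave the cell down their gradient, which sets the resting potential, ends action potentials and spaces repetitive firing. The voltage-gated Kv, EAG and Kv7 channels open on depolarization, SK and BK channels respond to calcium, inward rectifiers (Kir) hold the membrane near the potassium equilibrium, and two-pore-domain (K2P) channels carry leak current. KChIP, Kv beta, KCNE and BK beta subunits change the gating or trafficking of the pores, and outside the nervous system the same families serve acid secretion, vascular tone and epithelial transport.

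Retained libraries held 3045845 to 27801717 counted reads, with a median of 8735554. In a bulk sample, fewer cells of a type and less RNA per cell cannot be told apart. A total of 3 retained libraries lay nearer the mean profile of another organ than of their own. These were pgWAT 22 h replicate 2 (nearest STM), psWAT 8 h replicate 1 (nearest pgWAT) and psWAT 12 h replicate 3 (nearest CBL). BRN 12 h replicate 2, BRN 18 h replicate 2 and iBAT 22 h replicate 2 held over 2000 fewer detected genes than their organ's median when all libraries were thinned to 3000000 reads. Neuronal genes summed to at least 1981 normalized CPM in every nervous system library, parietal cell genes to at least 2496 in every STM library, hepatocyte genes to at least 119900 in every LIV library and brown adipocyte genes to at least 5531 in every iBAT library. In the white fats adipocyte genes ranged widely, from 1132 to 15340 in pgWAT and from 80.57 to 6738 in psWAT. Markers of other tissues were high in the libraries nearest CBL and STM: psWAT 12 h replicate 3 had neuronal genes at 2772, above the lowest nervous system library, and pgWAT 22 h replicate 2 had smooth muscle genes at 13270 and epididymis genes at 17400.

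The summed level of the members separated the nervous system from the periphery. It ran from 4648 to 5451 normalized CPM in BST (median 5152), from 4094 to 5040 in OB (median 4726), from 4102 to 4904 in CBL (median 4637) and from 3014 to 4905 in BRN (median 4140). In STM it was 795.4 to 1623 (1209), in iBAT 573.3 to 820.9 (675.9) and in LIV 136.5 to 282.7 (185.3). In the white fats the medians were 308.7 in pgWAT and 322 in psWAT, and the highest libraries reached 1072 and 2531; without the libraries nearest another organ the highest were 531.5 and 440. No nervous system library overlapped any peripheral library. The number of members at 3 or fewer reads in every library was lowest in BRN, with 5 of 92, and highest in LIV, with 55 of 92; a median of at least 1 normalized CPM was reached by 74 members in BRN and in BST, 56 in STM and 19 in LIV. Altogether 16 members in OB, 14 in BST and 15 in each of the other nervous system organs had a median of at least 100 normalized CPM, against 3 in STM, 1 in iBAT and none in LIV or the white fats.

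**Figure D1:**
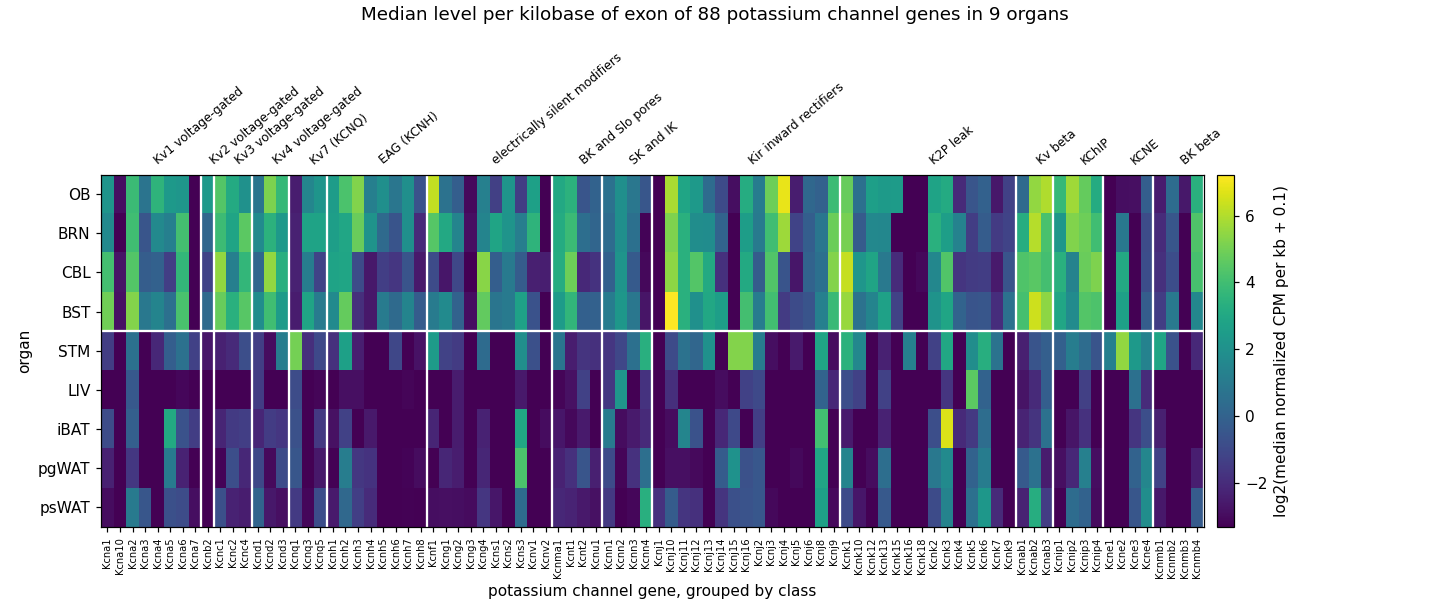
Each cell gives the median level of 1 of 88 genes (columns, grouped by class) in 1 of the 9 organs (rows), as log2(median normalized CPM per kb of exon + 0.1). The upper 4 rows, the nervous system, are bright across most classes, whereas STM, LIV and the 3 fats each show a few bright columns, such as Kcnk3 in iBAT and Kcnk5 in LIV.

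Ranked by median, BST was the top organ of 21 members, OB of 18, CBL of 18, BRN of 15, STM of 13, iBAT of 3, psWAT of 2, and LIV and pgWAT of 1 each. A total of 28 members had every library of the top organ above every library of all other organs. How many of all genes did so was not counted. These 28 included 7 of CBL, 6 of OB, and 4 each of BRN, BST and STM. In CBL they included Kcnip4, a subunit that slows Kv4 inactivation, which ran from 116.5 to 158.3 normalized CPM there and reached 74.51 at most elsewhere. Its Kv4 partner Kcnd2 ran from 210.6 normalized CPM upward in CBL, close above the 207.7 reached in OB. In BST they included the axonal Kcna2, which ran from 369.7 to 519.2 normalized CPM and reached 318.7 at most elsewhere, whereas Kcna1, its usual partner, ran from 85.25 to 172.3 in BST and from 59.36 to 100.3 in CBL, with overlap.

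The summed levels of the classes ordered the organs differently. Kv1 genes had their highest median sum in BST (733.7 normalized CPM, against 403.5 in CBL and 298 in OB), and EAG genes in OB (440.6, against 320.3 in BRN and 100.3 in CBL). The OB and BRN ranges of the EAG sum did not overlap, at 409.4 to 472.6 and 226.5 to 403.2. Only 3 of the 15 classes had their highest median sum in a peripheral organ, namely KCNE (119.8) and SK and IK (69.43) genes in STM and K2P leak channels in iBAT. The SK and IK ranges of STM (47.91 to 103.5) and BST (50.14 to 69.96, median 63.37) overlapped. For KCNE the lowest STM library (30.3) lay below the highest of CBL (31.86). For K2P the median was 409.9 in iBAT and 339.3 in CBL, and the ranges of iBAT (297.8 to 568.8) and CBL (312.5 to 371.3) overlapped. Among the smaller genes of muscle and vessels, Kcnmb1, the beta subunit of smooth muscle BK channels, ran from 18.81 to 72.93 normalized CPM in STM. It had a median of at most 1.33 in each other organ, with 22.36 in pgWAT 22 h replicate 2, where smooth muscle markers summed to 13270. Kcnj8, the KATP pore of vascular muscle and pericytes, was highest in iBAT (median 41.96) and between 16.11 and 19 at the median in STM and the white fats, with overlapping ranges.

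The first comparison set the mean of the 4 nervous system organs against the mean of the 5 peripheral organs. A total of 68 of the 87 members tested were higher in the nervous system (adjusted p below 0.05 and absolute log2FC above 1), where 27.4% of all 22113 genes were, and 9 were lower, where 26% of all genes were. The median log2FC was 4.63 over the members and -0.115 over all genes. Kcna10, Kcng3, Kcnk18, Kcnmb3 and Kcnv2, whose highest counts in any library were 5, 13, 5, 6 and 23, did not pass the filter on low counts.

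Among the members named for the nervous system were inward rectifier and Kv7 genes. Kcnj3 and Kcnj9, subunits of the G-protein-activated inward rectifier, had log2FCs of 9.75 ± 0.255 (SE; adjusted p = 1.28e-76) and 8.42 ± 0.252. Kcnq3, a subunit of the M-current channel, had a log2FC of 8.50 ± 0.179. Kcns2, an electrically silent modifier that forms no channel alone, had 8.97 ± 0.206. By class, all 8 EAG, all 4 KChIP, all 3 Kv4, all 4 BK and Slo pores and all 3 Kv beta genes were higher in the nervous system, as were 11 of 15 Kir and 8 of 13 K2P genes.

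The 9 members that were higher in the periphery were Kcnj15, Kcne3, Kcna7, Kcnn4, Kcnq1, Kcnk5, Kcnj1, Kcnk6 and Kcnj8, of which Kcna7 and Kcnj1 were named after their values were seen. Kcnj15, an inward rectifier, had the largest difference (log2FC -5.99 ± 0.404). Of the others, those with a mean of at least 5 normalized CPM in the periphery and the largest differences were Kcnn4, the calcium-activated channel of lymphocytes and epithelia (-4.02 ± 0.141), Kcnq1, a channel of secretory epithelia and heart (-3.55 ± 0.153), and the K2P genes Kcnk5 (-2.33 ± 0.133) and Kcnk6 (-2.12 ± 0.0877). Of 29 other genes that act with potassium channels (sodium pump, chloride cotransporter, HCN, DPP, BK gamma, KATP regulatory, TRIC and clustering genes), 22 were higher in the nervous system and 4 lower. That list, like the members' classes, was drawn up with earlier results of these data known.

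Within the nervous system each organ was set against the mean of the other 3. In OB, 18 of 81 members were higher (8.7% of all genes) and 19 were lower (10.3% of all genes). Kcnj4, a strong inward rectifier of forebrain neurons, had the highest level per length there, 117.3 normalized CPM per kb. Its 18 OB libraries ran from 217.3 to 304.9 normalized CPM (median 252.4), BRN reached 132.8 at most, and the medians in CBL and BST were 1.22 and 0.552. The OB libraries did not overlap those of any other organ, and the log2FC was 5.78 ± 0.0831.

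Kcnf1, an electrically silent modifier, had a median of 368.5 normalized CPM in OB, with its lowest OB library (303.7) above every library of every other organ (BRN, next in order, had a median of 103.5), and a log2FC of 4.80 ± 0.0583. The K2P gene Kcnk15 ran from 8.60 normalized CPM upward in OB and reached 1.43 at most elsewhere (log2FC 5.10 ± 0.159). EAG genes were higher in OB in 6 of 8 cases, led by Kcnh3 (4.71 ± 0.0609), and none was lower. Kcnip2, which binds Kv4 channels, had a log2FC of 2.96 ± 0.0742. The members lowest in OB against the other 3 were Kcne2 (-5.45 ± 0.592), Kcnab1 (-3.72 ± 0.0595), Kcns3, Kcns1 and Kcnk4.

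BRN shared several of these genes. There 22 of 81 members were higher (13.4% of all genes) and 8 lower (7.21% of all genes), and 7 of the 9 electrically silent modifiers tested were among the higher ones. Kcnh4 (log2FC 4.43 ± 0.116), Kcnj4 (4.27 ± 0.0877), Kcnh3 (4.25 ± 0.0626), Kcnv1 (4.24 ± 0.0824) and Kcng1 (3.70 ± 0.0951) led; for Kcnj4 and Kcnh3 the reference mean includes CBL and BST, where they were near 0, and OB itself was higher than BRN. Kcnab2, a Kv1 beta subunit, had the highest level per length in BRN, 65.96 normalized CPM per kb. Kcng4 (-2.25), Kcna1 (-1.72), Kcnk10 (-1.45) and Kcnd2 (-1.34) were the members lowest in BRN against the rest.

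CBL was the nervous system organ with the most members lower: 39 of 81 were lower (12.9% of all genes) and 16 higher (7.66% of all genes), with a median log2FC of -0.888 over the members and -0.0279 over all genes. The lower members included 7 of 8 EAG genes and 6 of 9 modifiers, with Kcng1 (-5.47 ± 0.162), Kcnv1 (-5.13 ± 0.141), Kcnf1 (-5.09 ± 0.0939), Kcnj4 (-4.47 ± 0.158) and Kcnh3 (-3.58 ± 0.0955) lowest. The higher members were led by Kcne2 (3.21 ± 0.362), Kcng4 (2.98 ± 0.0418), Kcnj12 (2.40 ± 0.0485) and Kcnk10 (2.01 ± 0.0668). Kcnk1, a K2P channel, had 78.38 normalized CPM per kb in CBL and ran from 142.8 to 190.8 normalized CPM (median 175.2). Kcnc1, a Kv3 channel that permits high firing rates, had 45.78 per kb and ran from 355.2 to 493.5 normalized CPM (median 433), above every library of every other organ (at most 289.8).

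In BST, 19 of 81 members were higher (9.06% of all genes) and 8 lower (7.8% of all genes). Kcnj10, the inward rectifier through which astrocytes and oligodendrocytes take up potassium, was the most abundant member of any organ per length, 149.7 normalized CPM per kb. It ran from 676.2 to 899.4 normalized CPM in BST (median 809.3), above every library of every other organ, the next highest being 396.6 in OB. Oligodendrocyte markers were also highest in BST (median 18030 normalized CPM, against 7615 in BRN), whereas astrocyte markers were highest in CBL (median 3154, against 2762 in BST), where Kcnj10 had a median of 232.9. The part of either cell type in the Kcnj10 level was not tested. Kcnj14 had the largest log2FC (3.74 ± 0.125) and did not overlap any other organ, followed by Kcns3 (2.96 ± 0.095), the axonal channel Kcna1 (2.18 ± 0.127) and Kcne2 (2.08 ± 0.384). Kcnj4 (-5.59 ± 0.151), Kcnh3, Kcnh4, Kcnmb4 and Kcnip2 were the members lowest in BST.

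The auxiliary subunit Kcne2 and the inward rectifier Kcnj13, both known in the apical membrane of the choroid plexus, varied between BST libraries far more than the other members named for that organ. Kcne2 lay between 10.8 and 24.8 normalized CPM in 10 of the 18 BST libraries and at 1.38 or below in the other 8. Kcnj13 lay at 9.76 or above in the same 10 libraries and at 1.93 or below in the others. The summed level of 7 choroid plexus markers (Ttr, Folr1, Clic6, Kl, Otx2, Aqp1 and Sostdc1) was at least 1755 normalized CPM in those 10 libraries and between 29.9 and 175 in the others. Both kinds of library occurred at 0, 2, 12 and 18 h of fasting, while all 3 of 8 h were low and all 3 of 22 h were high. In CBL, Kcne2 ran from 2.90 to 30.5 normalized CPM (median 14.5) and the markers from 576 to 4522, and in OB, Kcne2 had a median of 0.0539 with markers at a median of 60.6. How much choroid plexus each dissection held was not tested, and the organ differences in Kcne2 given above move with these marker values. Part of the Kcnj13 exons overlap Gigyf2 on the other strand, so its reads are less certain than those of Kcne2.

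**Figure D2:**
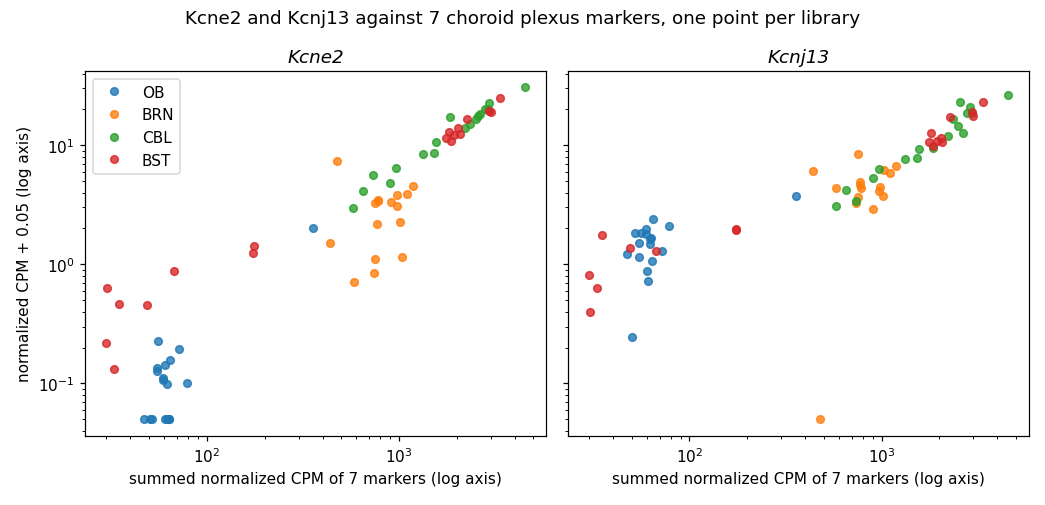
Each point is 1 library of OB, BRN, CBL or BST, with the summed normalized CPM of 7 choroid plexus markers on the x axis and the normalized CPM + 0.05 of Kcne2 (left) or Kcnj13 (right) on the y axis, both on log scales. The BST points form 2 clusters, 10 libraries with Kcne2 at 10.8 or above and 8 at 1.38 or below.

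Because this pair rose and fell together between libraries, their promoter windows are shown (RefSeq, GRCm38.p6, 250 bases before to 50 after the annotated start, written 5′ to 3′ on the gene's strand). Kcne2 has 2 windows, of which the one at the Gencode start of the gene is shown and searched. It lies on the plus strand at chr16:92292139-92292438, and Kcnj13 on the minus strand with its window at chr1:87394680-87394979. Capitals mark matches to TATAAA or to TGACG, letters found in cAMP response elements, on either strand (as TTTATA or CGTCA where the match is on the other strand).
Kcne2: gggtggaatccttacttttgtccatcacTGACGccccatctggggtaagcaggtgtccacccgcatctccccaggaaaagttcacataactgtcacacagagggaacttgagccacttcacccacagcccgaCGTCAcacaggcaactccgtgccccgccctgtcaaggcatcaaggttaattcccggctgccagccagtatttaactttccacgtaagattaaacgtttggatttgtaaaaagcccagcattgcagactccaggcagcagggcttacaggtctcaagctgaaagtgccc
Kcnj13: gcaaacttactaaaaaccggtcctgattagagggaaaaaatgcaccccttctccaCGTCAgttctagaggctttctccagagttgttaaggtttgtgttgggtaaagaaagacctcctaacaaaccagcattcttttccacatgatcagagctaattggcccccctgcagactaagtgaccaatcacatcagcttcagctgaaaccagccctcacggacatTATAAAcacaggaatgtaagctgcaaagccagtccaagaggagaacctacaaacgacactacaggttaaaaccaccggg
The Kcne2 window held 2 TGACG matches and no TATAAA, and the Kcnj13 window held 1 of each. Neither held TAATCC, the letters bound by OTX factors. Over 32851 mouse promoter windows of 300 bases, 20.8% held TGACG, 13.6% TATAAA and 7.06% TAATCC. Among the 92 windows of the 67 members that had one, 17, 5 and 2 did. A match describes letters in these windows and not a bound site.

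Each peripheral organ was set against the mean of the other 4. A total of 47 of 75 members were higher in STM (21.9% of all genes) and 4 lower (16.6% of all genes), with a median log2FC of 1.82 over members and -0.0917 over all genes. All 4 KCNE, all 4 KChIP and all 3 BK beta genes tested were higher. Kcne2, which keeps the parietal cell Kcnq1 channel open, was the most abundant member per length at 45.62 normalized CPM per kb. It ran from 12.13 to 185.5 normalized CPM (median 80.61) and had a median of 0 in LIV and in each fat (log2FC 11.64 ± 0.228).

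Kcnq1 itself ran from 26.77 to 201.5 normalized CPM in STM (median 131.5), and the highest library of any other organ had 19.78. Its exons overlap the antisense transcript Kcnq1ot1. Kcnj15 (38.68 normalized CPM per kb) and Kcnj16 (37.12 per kb; log2FC 7.17 ± 0.4), inward rectifiers of gastric and renal epithelia, completed the leading 4. Kcnj15 libraries ran from 53.99 to 482.4 normalized CPM, above every library elsewhere (at most 38.63). Kcne1 (log2FC 8.70 ± 0.261), and the K2P gene Kcnk16 (8.21 ± 0.281), known from pancreatic islets, were also at a median of 0 in the other peripheral organs. Kcnk10 (6.91 ± 0.309), another K2P channel, had a median of 25.09 normalized CPM in STM and 2.70 in LIV. With the 0 h libraries alone 31 members were called higher, and the share of all genes under that setting is not given here.

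LIV had the fewest potassium channel transcripts. A total of 53 of 75 members were lower there (31.3% of all genes) and 5 higher (17.6% of all genes), with a median log2FC of -2.99 over members and -0.347 over all genes. The exception by level was Kcnk5, a K2P channel opened by alkaline pH, at 23.32 normalized CPM per kb. Its 18 libraries ran from 29.44 to 161.2 normalized CPM (median 79.37), above every library of every other organ (at most 19.82), with a log2FC of 4.49 ± 0.194. Kcnn2, a small-conductance calcium-activated channel, ran from 24.17 to 46.57 normalized CPM (log2FC 5.12 ± 0.408). The members lowest in LIV were Kcnj15 (-7.00 ± 0.357), Kcna5 (-5.90 ± 0.466), Kcns3 (-5.89 ± 0.346), Kcnf1 and Kcnc1.

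In iBAT, 18 of 75 members were higher (17.3% of all genes) and 31 lower (23.3% of all genes). Kcnk3, an acid-sensitive K2P channel, was its most abundant member per length. It ran from 287.2 to 556.5 normalized CPM (median 401.6, where the median sum of all members was 675.9), while the highest library of any other organ had 94.62, in CBL. It had a log2FC of 5.33 ± 0.208. The gene lies at chr5:30588170-30625271 (GRCm38, plus strand). Kcna5 (3.97 ± 0.24), Kcnj11, the KATP pore (3.09 ± 0.457), and Kcnn1 (2.82 ± 0.186) were also higher. Skeletal muscle markers summed to 45.87 to 13440 normalized CPM in iBAT (median 1191), and Kcnj11 ran from 2.469 to 26.39. The part of muscle in these levels was not tested. Kcnj16 (-8.60 ± 0.96), Kcnk10, Kcnk1, Kcnn4 and Kcnk5 were lowest in iBAT.

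RNA of the white fats was extracted with a lipid tissue kit and that of the other organs with another kit, so kit and white fat cannot be told apart. In pgWAT, 25 of 75 members were higher (19.3% of all genes) and 12 lower (10.6% of all genes). Kcns3, an electrically silent modifier, led with 18.62 normalized CPM per kb and a log2FC of 3.62 ± 0.184. It ran from 39.95 to 96.66 normalized CPM and did not overlap any other organ. Kcnk1 had the next largest log2FC in pgWAT (2.93 ± 0.508), on libraries that ran from 0 to 142.6 normalized CPM (median 5.77). It was highest in 22 h replicate 2, at 142.6, in 18 h replicate 3, at 139.9, and in 2 h replicate 2, at 30.6. The same 3 libraries had the highest epididymis marker sums, 17400, 7281 and 2444 normalized CPM against a median of 7.91 in the organ; the part of these in the Kcnk1 level was not tested.

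In psWAT, 35 of 75 members were higher (25.4% of all genes) and 6 lower (12.9% of all genes). Kcnn4 (log2FC 3.76 ± 0.135), which ran from 14.33 to 108 normalized CPM (median 51.14), and Kcnab2 (4.48 ± 0.16), from 6.72 to 81.28 (median 52.13), were the leading members per length, at 9.999 and 9.346 normalized CPM per kb. The T cell markers summed to 121.2 to 892.6 normalized CPM in psWAT and the B cell markers to 48.81 to 1597, while no library of the other organs exceeded 24.77 and 17.25. Kcnab2 was lowest, at 6.72, in 8 h replicate 1, which also had the lowest lymphocyte sums. The part of lymphocytes in these levels was not tested. Kcnc1 (log2FC 3.99 ± 0.562) and Kcnd2 (3.34 ± 0.665) were called higher as well. In 12 h replicate 3 Kcnc1 had 283.5 normalized CPM and Kcnd2 184.8, and the other psWAT libraries had at most 16.25 and 5.184; cerebellar markers summed to 2513 in that library against an organ median of 2.47. Without the libraries nearest another organ both calls held, at 3.12 for Kcnc1 and 1.53 for Kcnd2. Skeletal muscle markers summed to 11.04 to 22300 normalized CPM in psWAT (median 364.3), highest in 2 h replicate 2. The part of muscle in the psWAT levels was not tested.

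The other question was which members changed with fasting within an organ. A joint test across the 6 times (edgeR quasi-likelihood, adjusted p below 0.05 over all genes of the organ) called 20 of 77 members in OB, against 15.4% of all genes, and 6 of 31 in iBAT, against 29%. It called 6 of 62 in STM (6.55% of all genes), 3 of 70 in CBL (2.99%) and none in the other organs. In LIV that was 0 of 19 where 16% of all genes were called, with 1 member at an unadjusted p below 0.05 (35.2% of all genes) and 1 called by DESeq2 (25.6% of all genes). In BRN (0.00597% of all genes), BST (0.107%), pgWAT and psWAT (0% each) the members at an unadjusted p below 0.05 numbered 9, 10, 9 and 20, which was 11.7%, 13%, 20.5% and 42.6% of members against 16.6%, 11.1%, 10.3% and 19.1% of all genes. Without the libraries nearest another organ, an alternative added after the data were seen, it was 7 of 38 members in pgWAT (12.9% of all genes) and 11 of 43 in psWAT (14.2%). In the same organs DESeq2 called 3, 3, 6 and 9 members, against 9.8%, 1.44%, 3.39% and 12.6% of the genes to which it gave an adjusted p, and it gave none to 13 of the members in psWAT; it was not run without those libraries. Differentially expressed genes (DEGs) against 0 h, which also needed an absolute log2FC above 1, numbered 12 of 62 members in STM (8.75% of all genes) and 9 of 31 in iBAT (29.8%). There was 1 each in OB (0.544%), BRN (5.93%) and CBL (0.676%), and none in BST (0%), LIV (4.16%), pgWAT (0.00609%) and psWAT (0%). The comparisons of an organ's 5 fasting times share the same 0 h libraries.

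In OB, 17 of the 20 called members had their lowest mean at 18 h and 2 their highest, where 48.4% and 40.5% of the 2570 genes called there did, and 9 had their highest at 12 h, as did 13.2%. They were 5 of 12 Kir, 3 of 8 EAG and 3 of 6 Kv1 genes among others, with no modifier among 8. In 21 of 77 members every 18 h library lay below every 0 h library, against 14.6% of all genes. The members' median log2FC at 18 h was -0.158, against -0.000726 over all genes, and by 22 h it was -0.0355.

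Kcnma1, the BK channel pore, had 159.9, 159.3 and 106.6 normalized CPM at 0 h and 80.65, 90.81 and 89.95 at 18 h (log2FC -0.67 ± 0.119, adjusted p = 0.00725; joint adjusted p = 0.00471). Its other libraries ran from 106.1 to 156.9, so the 18 h libraries were the low ones. Kcnn3, a small-conductance calcium-activated channel, had 22.07, 20.05 and 16.57 at 0 h and 10.01, 11.6 and 12.71 at 18 h (-0.75 ± 0.128, adjusted p = 0.00614). In both genes the 18 h and 0 h libraries did not overlap.

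The other leading members fell at 18 h by less than 1 on the log2 scale too. Kcna2 had -0.42 ± 0.0947, the glial Kcnj10 -0.38 ± 0.0865 and Kcnc2 -0.37 ± 0.0818, each with an adjusted p of 0.0124 or lower. Kcnj6, a G-protein-activated inward rectifier, was called by the joint test (adjusted p = 0.00969). It had 12.49, 10.15 and 13.23 normalized CPM at 12 h and 3.03, 5.11 and 5.03 at 18 h, and neither time passed against 0 h (6.59, 8.40 and 6.58). Kcna3, a Kv1 channel, was the one DEG (-2.14 ± 0.63, adjusted p = 0.0406). It had 3.27, 4.05 and 2.24 normalized CPM at 0 h and 0.252, 0.696 and 1.19 at 18 h, but also 0.677, 4.24 and 1.02 at 2 h. That call was lost when any of 8 single libraries was left out, such as 18 h replicate 1 or 18 h replicate 2. Leaving out 18 h replicate 1 ended the call of Kcna2. In the opposite direction, Kcnk13, a K2P channel of microglia, rose from 11.7, 12.68 and 13.67 at 0 h to 17.33, 15.93 and 19.11 at 18 h (0.50 ± 0.131, adjusted p = 0.0227).

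**Figure D3:**
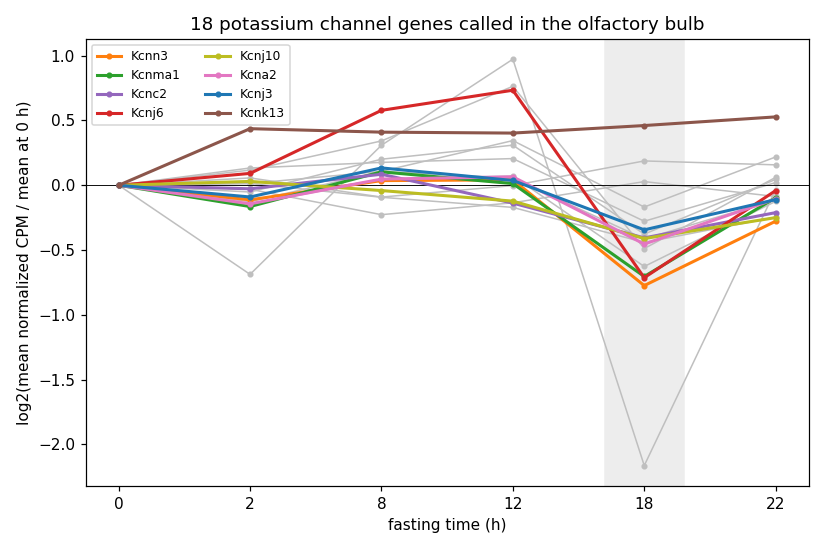
Each line is 1 of 18 potassium channel genes called in OB, as log2 of the mean normalized CPM at each fasting time (x axis, h; 6 evenly spaced times) over the mean at 0 h; 8 are coloured and named and the 18 h column is shaded. Most lines dip at 18 h and return toward 0 at 22 h.

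Values that moved with the 18 h dip are given beside it. Across the 97.9% of 16742 genes with a known exon length, the log2FC at 18 h fell with that length (Spearman rho -0.467 across genes, which are not independent). The medians of all genes were 0.221 below 2 kb and -0.229 above 8 kb. Over the 77 members rho was -0.407, and the 14 members above 8 kb had a median of -0.417. The 3 members below 2 kb went the other way from all genes of that length, with a median of -0.97. When each library's trend with exon length was removed, an alternative added after the data were seen, the joint test called 9 of 77 members (5.93% of all genes), 8 of them shared with the 20. Kcnn3, Kcnc2, Kcnj6 and Kcnj10 were among these, and Kcnma1 and Kcna2 were not. The sequencing lane also changed with time, since 0 to 8 h libraries ran in lane 3 (but for 8 h replicate 3) and 12 to 22 h libraries in lane 4. Within lane 4 alone 16 of 75 members were called (7.98% of all genes), and Kcnma1 (-0.69 ± 0.0748), Kcnn3 (-0.79 ± 0.112) and Kcnj6 (-1.42 ± 0.23) were lower at 18 h than at 12 h, with adjusted p of 0.0021 or lower. With lane as a covariate 10 members were called (7.02% of all genes), with Kcnn3, Kcnj6, Kcnma1 and Kcna2 among them but not Kcnc2 or Kcnj10, and without the 18 h libraries none was. Neuron markers summed to 3680 to 3816 normalized CPM at 18 h and to 3686 to 4314 at the other times. Their part, that of exon length and that of the lane in the dip were not tested further.

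In STM, members changed in both directions at 18 h, and the parietal cell pair Kcne2 and Kcnq1 fell. Kcne2 had 83.17, 77.74 and 185.5 normalized CPM at 0 h and 14.8, 44.93 and 25.22 at 18 h (log2FC -2.04 ± 0.575, adjusted p = 0.0333). Kcnq1 had 162.4, 110.5 and 165.7 at 0 h and 48.47, 62.54 and 47.74 at 18 h (-1.46 ± 0.394, adjusted p = 0.0246). In both genes the groups did not overlap, and at 22 h the libraries ranged from 12.13 to 80.61 and from 26.77 to 120.6. Kcnj15 (-1.06 ± 0.445, adjusted p = 0.117) and Kcnj16 (-1.64 ± 0.568, adjusted p = 0.0675) did not pass, although their 0 h and 18 h libraries did not overlap either.

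Kcne3, a KCNE subunit of epithelia, had 21.17, 43.58 and 33.67 normalized CPM at 0 h and 3.24, 3.88 and 2.36 at 18 h (log2FC -3.37 ± 0.725, adjusted p = 0.0111). Kcnk1 had 33.54, 38.05 and 34.32 at 0 h and 4.79, 12.39 and 7.32 at 18 h (-2.10 ± 0.353, adjusted p = 0.0031). The members that rose included Kcna2 (2.00 ± 0.37), Kcnip4 (1.84 ± 0.6), Kcnip2 (1.76 ± 0.539), Kcnma1 (1.62 ± 0.332), Kcnd3 (1.18 ± 0.322) and Kcnj11 (1.16 ± 0.337), each with an adjusted p of 0.0489 or lower at 18 h. The 18 h and 0 h libraries overlapped for Kcnip2 alone among these. Kcnma1, the BK pore of smooth muscle, had 17.28, 26 and 9.06 normalized CPM at 0 h and 61.58, 30.45 and 66.76 at 18 h. Kcnh2, an EAG-family channel of gut muscle, was the DEG of 22 h (1.26 ± 0.223, adjusted p = 0.0241), with 69.67, 41.44 and 65.97 against 28.29, 27.13 and 18.61 at 0 h.

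**Figure D4:**
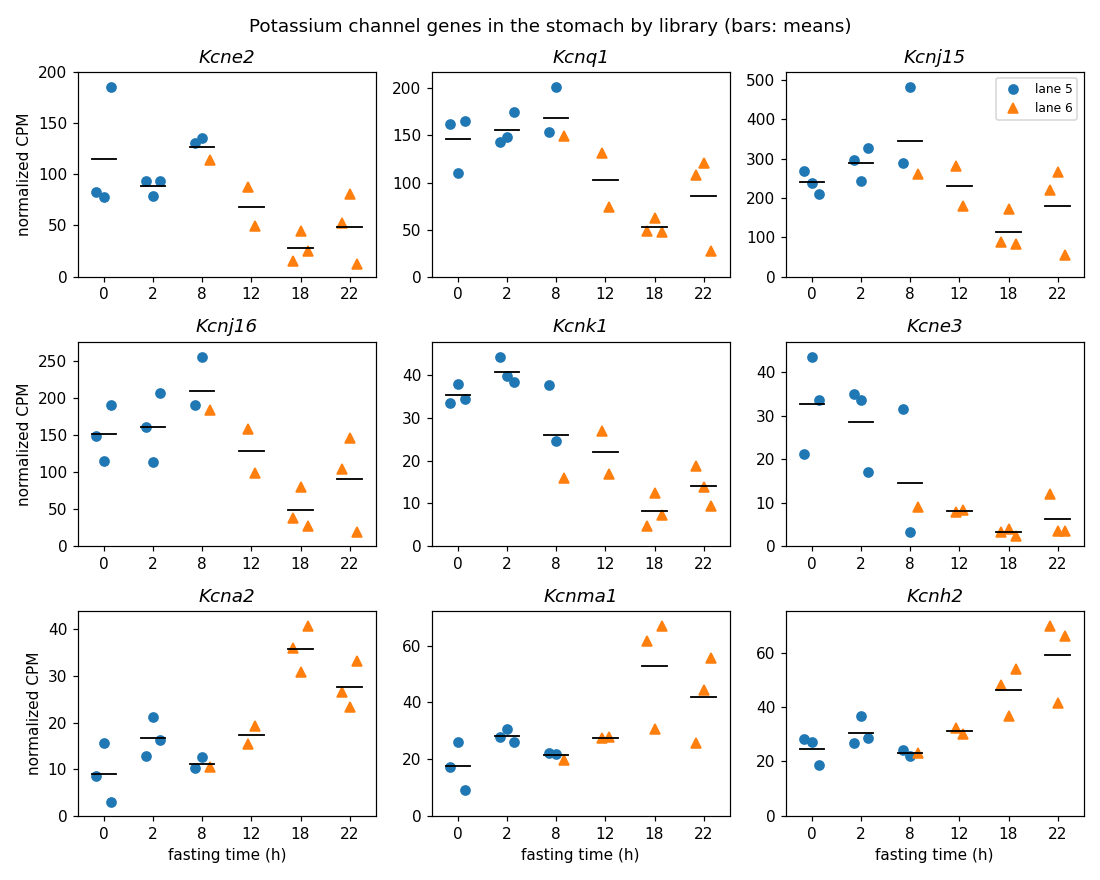
Each point is 1 STM library, with fasting time (h) on the x axis and normalized CPM on the y axis for 9 potassium channel genes; bars are means, circles are lane 5 and triangles lane 6. At 18 h Kcne2, Kcnq1, Kcnk1 and Kcne3 lie below every 0 h library, and Kcna2, Kcnma1 and Kcnh2 lie above.

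Cell type markers moved with these STM changes. Parietal cell markers summed to 7863 to 12210 normalized CPM at 0 h and to 3576 to 4153 at 18 h. Smooth muscle markers summed to 6799 to 9048 at 0 h and to 15810, 7175 and 16040 at 18 h, and surface mucous markers to at least 39690 at 0 h and to 10980, 41120 and 11410 at 18 h. The second 18 h library, lowest in smooth muscle, was also the lowest of the 3 for Kcnma1 and Kcnip2 and the highest for Kcne2 and Kcnk1. Mitochondrial genes took 2.83% to 9.57% of STM reads at 0 to 8 h and 11.0% to 24.4% at 12 to 22 h, without overlap. How much mucosa and muscle each piece held, and the part of the mitochondrial share, were not tested. Lane and time cannot be told apart for most STM comparisons, since 0 to 8 h ran in lane 5 (but for 8 h replicate 3) and 12 to 22 h in lane 6. With lane as a covariate the joint test called no member (0% of all genes) and none was a DEG. Within lane 6 the joint test called 0 of 57 members (0.00646% of all genes), with 4 members at an unadjusted p below 0.05. Removing the exon length trend left 6 of 62 called (5.13% of all genes), the same 6. Without 18 h replicate 3 the joint test called 1, Kcnh2, and without it or 18 h replicate 1 Kcne2 and Kcne3 were no longer DEGs; Kcne2 also depended on 0 h replicate 3. Kcna2 and Kcnk1 were DEGs whichever single library was left out. The DEG call of Kcnip4 held in 6 of 17 such fits and that of Kcnip2 in 12 of 17, and these calls and that of Kcne2 were lost with the replicate block and with no filter on low counts. Kcnip4 was also lost with the excluded libraries put back and with the exon length trend removed.

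In iBAT the DEGs lay mainly at 22 h, with 9 members lower and none higher; 29.8% of all genes were DEGs at some time. Kcnc2, Kcnd3 and Kcng4 had no read in either 22 h library. Against a floor of 3 reads over both libraries (0.336 normalized CPM) they were at least 4.34-, 5.96- and 8.43-fold lower than the 0 h means of 1.46, 2.00 and 2.83 normalized CPM. Kcna2 (-1.44 ± 0.446), Kcnab3 (-2.71 ± 0.584), Kcnj15 (-3.51 ± 1.02), Kcnq1 (-2.11 ± 0.721) and Kcnh2 (-1.92 ± 0.741) were lower as well. Kcns3 had 20.16, 13.25 and 16.26 normalized CPM at 0 h and 24.36 and 32.12 at 22 h (0.84 ± 0.28, adjusted p = 0.0235), a rise of less than the DEG threshold. The more abundant Kcnk3 and Kcnj8 did not pass at 22 h: Kcnk3 had 367.7, 396.1 and 287.2 at 0 h and 451.7 and 423.9 at 22 h (0.39 ± 0.217, adjusted p = 0.161), and the vascular KATP pore Kcnj8 had 0.71 ± 0.335 (adjusted p = 0.0983).

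**Figure D5:**
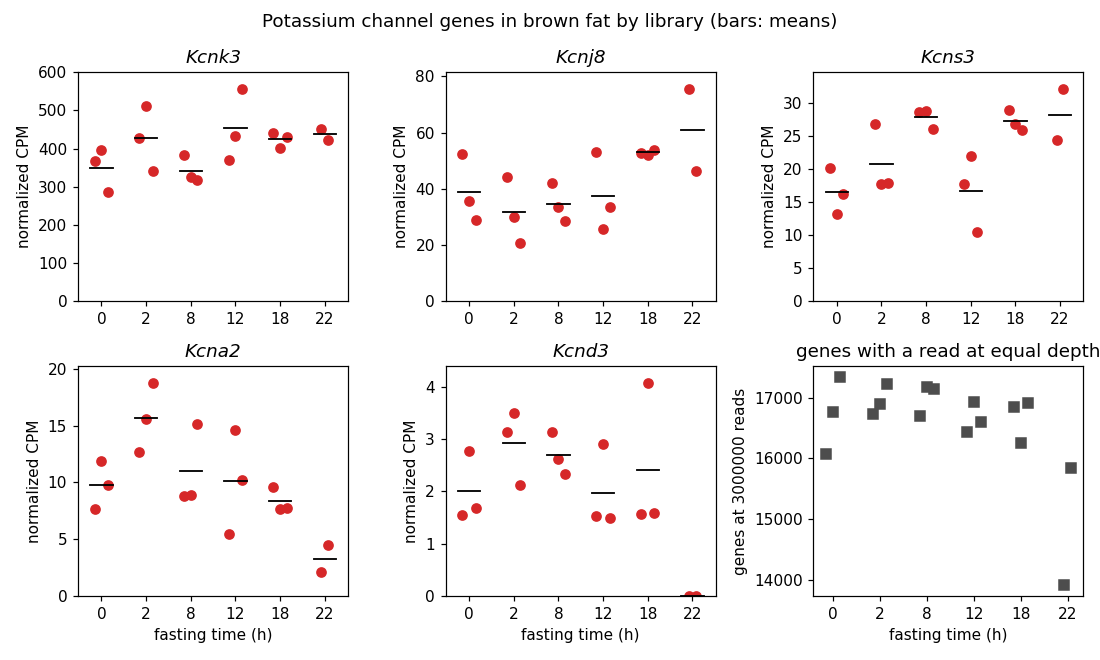
Each point is 1 iBAT library, with fasting time (h) on the x axis and normalized CPM on the y axis for 5 potassium channel genes, and in the last panel the number of genes with a read after thinning to 3000000 reads; bars are means. Kcnd3 is at 0 in both libraries of 22 h, Kcnk3 is at 423.9 or above there, and these 2 libraries have the fewest genes.

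The 22 h libraries of iBAT differed from the rest as libraries. At 3000000 reads they held 13910 and 15846 genes with a read, against 16068 to 17343 at the other times, and 5.47% and 11.8% of their reads came from mitochondrial genes, against 12.9% to 36.2%. The log2FC of all genes at 22 h fell with exon length (rho -0.518). They ran in lanes that held no retained library of another time, so lane and time cannot be told apart at 22 h. Without them 1 member was called by the joint test and as a DEG. With the exon length trend removed, 4 of 31 members were called (18.7% of all genes), Kcnd3, Kcng4 and Kcnab3 among them. Without 22 h replicate 2 alone 1 member was called by the joint test and 4 were DEGs. The part of library quality in the other 22 h calls was not tested.

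In CBL, the Kv3 gene Kcnc1 was lowest at 12 h and back at 18 h. It had 490.6, 452 and 477.3 normalized CPM at 0 h, 368.8, 355.2 and 376.9 at 12 h and 493.5, 485.3 and 442.6 at 18 h (joint adjusted p = 0.0338). The call was lost without any 1 of 8 libraries (each of 12 h among them), and with the exon length trend removed (0.0603). It did not pass against 0 h at a single time (12 h log2FC -0.30 ± 0.0764, adjusted p = 0.086). Kcna5 was the CBL DEG, with 0.370, 0.605 and 0.313 normalized CPM at 0 h and 1.57, 1.16 and 1.68 at 22 h (1.79 ± 0.395, adjusted p = 0.016). The test without 0 h replicate 3, 22 h replicate 2 or 22 h replicate 3 did not call it, and DESeq2 gave it no adjusted p.

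In BRN, Kcnq3 was the only DEG, lower at 12 h (-1.02 ± 0.215, adjusted p = 0.0163) and at 22 h (-1.04 ± 0.213, adjusted p = 0.0168). Its mean was 169.1 normalized CPM at 0 h, and its libraries had 83.88, 59.18 and 87.05 at 12 h and 67.66, 55.91 and 112.1 at 22 h, all below every 0 h library. The joint test did not call it, and the DEG call was lost with lane as a covariate, with the excluded libraries put back, with the exon length trend removed and without any 1 of the 0 h libraries, 22 h replicate 1 or 22 h replicate 2. The BRN log2FCs of all genes fell with exon length at every time (rho -0.317 to -0.482). Mitochondrial genes took 3.49% to 6.82% of BRN reads at 0 h, 6.51% to 12.2% at 12 h and 7.02% to 10.9% at 22 h, and genes with a read at equal depth numbered 19112 to 20400, 15913 to 19025 and 17998 to 19699. The library numbers in the labels form separate series, with every 0 h library in one, every 22 h library in another and 12 h split between them, so library series and time cannot be told apart at 22 h. Oligodendrocyte markers summed to 4605 to 6179 normalized CPM at 0 h, 7124 to 8511 at 12 h and 11310, 17190 and 6500 at 22 h, and neuron markers to 3793 to 4257, 2878 to 3935 and 3171, 2705 and 4011. The second 22 h library, highest in oligodendrocyte markers, was the lowest for Kcnq3. The part of RNA quality, of the series and of these cell types in the Kcnq3 values was not tested. In pgWAT, Kcns3, its leading member, had 39.95, 44.88 and 40.24 normalized CPM at 0 h and 96.66, 81.06 and 88.71 at 22 h without overlap; the log2FC of 1.10 ± 0.209 had an adjusted p of 0.0705 and was not called. In LIV, Kcnk5 had 129.4, 132.4 and 56.7 at 0 h and 67.48, 100.3 and 128.3 at 22 h, with overlap. Of the genes that act with potassium channels the joint test called 4 of 28 in OB (15.4% of all genes), 1 of 28 in CBL (2.99%), 2 of 27 in STM (6.55%), 5 of 16 in LIV (16%), 2 of 22 in iBAT (29%) and none elsewhere.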

How the data were processed

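Poly(A) RNA of 9 organs was sequenced by the authors (TruSeq stranded kit, HiSeq). The deposited table holds raw read counts per gene, which the authors made with TopHat2 2.1.1 on GRCm38.p5, uniquely mapped reads and HTSeq 0.9.1 on Gencode M16; the strand setting of the counting is not given in the sources used here, and 26 members have exons overlapping a gene on the other strand and 2 a gene on the same strand. The 5 libraries the study excluded (130701 to 4590060 reads) were left out. The members and lists were chosen with earlier results of these data known. Groups and replicate numbers came from the sample labels, and the replicates were 3 mice a time. The same replicate number at the same time was taken as the same animal in every organ. In some groups the replicates also differed in sequencing lane or library series.

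Counts were analysed with edgeR 4.0.16 in R 4.3.3 (TMM, robust quasi-likelihood F test, genes with at least 10 counts in at least 3 libraries, Benjamini-Hochberg over all genes of a fit). Organ contrasts compared unweighted means of log levels. A call needed an adjusted p below 0.05 and, for DEGs and organ contrasts, an absolute log2FC above 1; ± is the standard error, derived from the F statistic. Exon lengths came from Gencode M21. Named members were, per organ, up to 8 by joint adjusted p, 6 DEGs by log2FC, 5 per direction of a contrast with a mean of at least 5 normalized CPM and the top 5 per length, plus 29 listed members; the fasting values of Kcns3 in pgWAT and Kcnk5 in LIV were chosen after they were seen. A length trend (lowess of each library's log2 deviation on log2 exon length, as an offset) and within-lane fits were added after the data were seen. Alternatives were DESeq2 1.42.0, other normalizations and filters, blocks, lanes and libraries left out. The time fit of OB, the contrast of OB with the other nervous system organs and the length trend fit of OB were tested on simulated data. The same mouse gave 9 organs, so organ contrasts were also fitted with the animal as a block; between times the replicate number marks no shared animal (mean correlation of same-numbered deviations -0.0802 to 0.16). Some members named by these rules are not reported here. The floor of 3 reads covers counting error only.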

Additional observations from a re-analysis of the deposited data

Results flagged for a closer look

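Kcna2 and Kcnma1 were called by the joint test in more than 1 organ and their changes differed between organs, which was tested with the interaction of organ and time (edgeR quasi-likelihood, adjusted over all genes, added after the data were seen). For Kcna2, the log2FC in STM minus that in OB was 2.43 at 18 h (adjusted p = 0.000117) and 1.70 at 22 h (0.0187). The log2FC of Kcna2 in iBAT minus that in STM was -2.23 at 18 h (0.0149) and -2.99 at 22 h (0.000897). In iBAT itself Kcna2 did not pass at 18 h (-0.25 ± 0.346, unadjusted p = 0.472), and its joint call there was lost with the excluded libraries put back (22 h log2FC -0.058) and with the exon length trend removed (-0.54); the difference between organs was not refitted under those settings. For Kcnma1, STM minus OB was 2.32 at 18 h (0.000211) and 1.36 at 22 h (0.0423). Of all genes, 18.8% passed the same test between OB and STM at 18 h and 2.57% at 22 h, and 6.24% and 30% between STM and iBAT. In STM the lane differs between 0 h and both times, so lane and time cannot be told apart there, and the 2 iBAT libraries of 22 h are those with the fewest genes in that organ.

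Among the Kcn rows that are not members, the antisense transcript Kcnq1ot1 had reads in every retained library, up to 463 in 1 library, and overlaps the exons of Kcnq1.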

How the results depend on the processing

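Across these alternatives no named member reversed. Fasting calls of named members were lost in 18.1% of refits without 1 library and in 14.7% of refits under other settings; in the organ contrasts 14 refits lost the call and 790 held it. The replicate block changed counts of calls by over 1.5 times only for BRN DEGs (1 to 3), and the animal block in the organ contrasts changed no count by as much; the numbers mark no shared animal between times. Depth limits members under about 1 normalized CPM, most of those in LIV. Counts below without a percentage are given without the share of all genes called in the same refit. They do not set the members apart from other genes.

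Members called by the joint test, over the libraries left out in turn (where 1 library of a time remains, it is assumed to vary like the others), numbered 0 to 17 in BRN (17 without 18 h replicate 3), 7 (without OB 18 h replicate 1) to 22 in OB, 0 (without CBL 2 h replicate 2) to 8 in CBL, 0 to 2 in BST (2 without 0 h replicate 3), 1 (without STM 18 h replicate 3) to 8 in STM, 0 to 1 in LIV (1 without 0 h replicate 3), 1 (without iBAT 22 h replicate 2) to 8 in iBAT and 0 in pgWAT and psWAT. DEG members numbered 0 to 22 in BRN (22 without 18 h replicate 3), 0 to 1 in OB, 0 to 3 in CBL, 0 in BST, 5 (without STM 0 h replicate 3) to 19 (without 18 h replicate 2) in STM, 0 to 1 in LIV, 4 (without iBAT 22 h replicate 2) to 11 in iBAT, 0 to 1 in pgWAT (1 without 2 h replicate 1) and 0 in psWAT.

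DESeq2 gave no adjusted p, and so no call either way, to 16 members in the contrast of nervous system and periphery (Kcnj3 and Kcnj9 among them), to Kcnd2 in psWAT, to Kcna3 at 18 h in OB and to Kcna5 at 22 h in CBL. For the joint test, shares are of the members and of all genes to which DESeq2 gave an adjusted p. It called 3 of 76 members in BRN (9.8% of genes), 8 of 52 in CBL (13.8%), 3 of 74 in BST (1.44%) and 14 of 62 in STM (17.2%). It called 1 of 19 in LIV (25.6%), 10 of 31 in iBAT (40.6%), 6 of 43 in pgWAT (3.39%) and 9 of 34 in psWAT (12.6%). Without a filter on low counts the edgeR joint test called 7 members in BRN, 10 in CBL, 6 in BST and 2 in LIV. Library sizes alone gave 1 in LIV, and with the excluded libraries put back it was 3 in psWAT. Lane as a covariate gave 10 in OB (7.02% of all genes) and 0 in STM (0%), and could not be fitted in CBL, BST and iBAT. Without the 18 h libraries, OB and STM had 0, and without the 22 h libraries iBAT had 1. With the exon length trend removed OB had 9 and LIV 1. Without the libraries nearest another organ, members at an unadjusted p below 0.05 fell from 20 to 11 in psWAT and from 9 to 7 in pgWAT.

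For DEGs, DESeq2 gave 7 in BRN, 2 in pgWAT, 2 in CBL and 0 in OB. No filter gave 7 in BRN, 3 in OB and 3 in CBL, and no fold threshold gave 4 in BRN, 15 in OB and 2 in CBL. Lane gave 0 in OB, BRN and STM, and the excluded libraries put back gave 0 in BRN. The late fast (mean of 18 and 22 h) gave 0 in OB, 1 in LIV and 4 in iBAT. Without the 18 h libraries OB had 0 and STM 1, without the 22 h libraries iBAT had 1, and with the exon length trend removed OB had 0, CBL 2 and LIV 1. The cause was not tested, except that leaving out libraries or times leaves fewer samples.

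In the organ contrasts, no filter on low counts gave 13 lower members in BRN. The 0 h libraries alone gave 12 lower in OB, 31 higher and 2 lower in STM, 30 lower in LIV, 12 lower in iBAT, 4 lower in pgWAT and 13 higher in psWAT. In psWAT the lower members were 10 under DESeq2, 3 with library sizes alone and 10 without the libraries nearest another organ.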
